A study of Homo sapiens with 9 samples.

Results

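BASP1 was expressed in SW480 cells by 2 routes: from an introduced copy of its coding sequence, and from its own silenced gene switched on by a CRISPR activator. The comparison described here sets the 3 libraries of the CRISPRa line, SW480-gRNA-B-all, against the 3 libraries of the ectopic line, SW480-B. These are 6 of the 9 libraries of the series, and the other 3 are of the parental SW480 cells. Members were taken by the genotype in the labels, CRISPRa BASP1 against ectopic BASP1, with no use of measured values. SW480 is a human colon cancer line in which BASP1 is silenced. SW480-B was selected with geneticin after transfer of pcDNA3-BASP1, in which the CMV promoter drives the BASP1 coding sequence, and was grown from a single cell. SW480-gRNA-B-all carries dCas9-VP64, the MS2-P65-HSF1 activator and the pooled sgRNAs that direct them to the BASP1 promoter, brought in by successive lentiviral transductions with drug selection, and its activator-bearing precursor was also grown from a single cell. Neither line had an empty-vector counterpart among the libraries analysed here, so the route of BASP1 expression cannot be told apart from the clone, the vectors or the selection drug. All 9 libraries share 1 batch label.

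BASP1 is a myristoylated protein of the inner face of the plasma membrane, abundant in growing axons, and it also acts in the nucleus as a transcriptional corepressor, first described as a partner of WT1. In colon cancer cells with mutant APC, such as SW480, β-catenin escapes degradation and, with TCF/LEF factors, keeps a set of target genes active. These include feedback inhibitors of the WNT pathway and genes of intestinal stem cells. WNT signalling, cell adhesion and guidance cues are the functions looked at first, followed by lineage, immune, stress and growth genes. The gene lists for these functions were chosen with earlier results of these data known.

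The counts on genes lay between 25238831 and 29272161 in the 6 libraries, and levels are given as CPM, the counts per 1000000 counts on genes after TMM scaling. A count of 0 allows a level of at most 0.116 CPM in any of the 6. That limit of 3 counts and all counting intervals cover counting error only. Libraries 2 and 3 of SW480-gRNA-B-all stood apart by their likeness: 0.0669% of genes differed over 2-fold between them, against 7.74% to 28.2% for the other pairs within a line. Their counts still differed beyond sampling noise, by 3.13 per gene on a chi-square scale on which noise alone gives 1 and the other pairs gave at least 80.9, and they were kept as separate samples. Library 1 of SW480-B had the highest intronic share of bases, 7.27%, against 3.50% to 3.94% in the other 5. The sources do not say whether replicates came from separate cultures, so p-values measure the spread between these libraries, which may be technical. Among the markers of colon epithelium, KRT8 and KRT18 were abundant and overlapped between the lines. EPCAM was abundant in both lines and higher in every SW480-gRNA-B-all library than in any SW480-B library. KRT19, CDH1, CDX2 and VIL1 were lower in every SW480-gRNA-B-all library than in any SW480-B library. KRT20, CDX1, LGALS4 and GPA33 were below 1 CPM in all 6 libraries, and CDH17 had 0 counts in both lines. Summed markers of leukocytes reached at most 6.22 CPM and of endothelium at most 7.11 CPM in these 6 libraries. Fibroblast markers summed to 22.8 to 29.4 CPM in SW480-gRNA-B-all and 11.6 to 12.6 CPM in SW480-B, mostly from ACTA2 and COL1A1, while COL3A1, DCN and POSTN had 0 counts in both lines.

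BASP1 itself (ENSG00000176788; chromosome 5 of GRCh37, 17065707 to 17276952) had 167, 303 and 300.1 CPM in SW480-gRNA-B-all, 268, 268 and 250.3 CPM in SW480-B and 11.9, 8.03 and 0.691 CPM in the parental line. The ranges of the BASP1-expressing lines overlapped, with library 1 of SW480-gRNA-B-all lowest. The log2 fold change of SW480-gRNA-B-all over SW480-B was -0.03 (SE 0.24, adjusted p = 0.95), with a 95% interval from -0.58 to 0.52. Without library 1 of SW480-gRNA-B-all it was 0.22 (adjusted p = 0.43), also not called. These values compare fragments, not molecules: the ectopic transcript holds the coding sequence (681 bases, 17275326 to 17276006), whereas the annotated BASP1 mRNAs of the same protein hold 1711 and 1807 exon bases, and a shorter RNA gives fewer fragments per molecule.

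The start of BASP1 is shown because the activator was directed to the promoter of this gene. Where the guides lie was not analysed here. The 250 bases before the RefSeq start of BASP1 (GRCh38.p14, chr5:17216573-17216822, + strand) contain 65.6% G and C and no match to the TCF motif searched below:
BASP1: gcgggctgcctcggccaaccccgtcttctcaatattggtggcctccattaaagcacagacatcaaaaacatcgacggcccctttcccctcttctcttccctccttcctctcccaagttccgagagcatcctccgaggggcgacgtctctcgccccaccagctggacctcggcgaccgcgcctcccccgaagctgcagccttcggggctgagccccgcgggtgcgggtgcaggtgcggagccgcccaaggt

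BASP1-AS1, an annotated long noncoding RNA gene on the other strand at the same locus (chromosome 5 of GRCh37, 17089405 to 17217156), showed the largest fitted rise among the genes named by the rule for the largest changes. It had 3.08, 6.84 and 7.65 CPM in SW480-gRNA-B-all and 0 counts in all SW480-B libraries, and was at least 161-fold higher, with 3 counts over the SW480-B libraries as the limit. The outermost annotated start of BASP1-AS1 lies 224 bases inside the 1711-base BASP1 transcript and 584 bases before the start of the 1807-base one, and 75 bases are in exons of both genes. The strand setting of the counting is not stated, so reads of BASP1 and BASP1-AS1 in the shared bases may not be separated. The share of reads on the wrong strand was 0.578% to 0.851% in the 6 libraries.

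The activator itself contains parts of human p65 (RELA) and of HSF1, the master factor of the heat shock response. HSF1 had 209, 230.1 and 243 CPM in SW480-gRNA-B-all and 70.3, 99.6 and 79.2 CPM in SW480-B, without overlap, and rose by 1.45 log2 units (SE 0.18, adjusted p = 0.0035). RELA had 109, 101 and 96.9 CPM and 101, 123 and 94.5 CPM in the same order, with a log2 fold change of -0.05 (SE 0.16, adjusted p = 0.87). Gene counts do not tell transcripts of the vector from those of the endogenous genes. RELA lies outside the naming rule and was chosen after its values were seen.

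**Figure D1:**
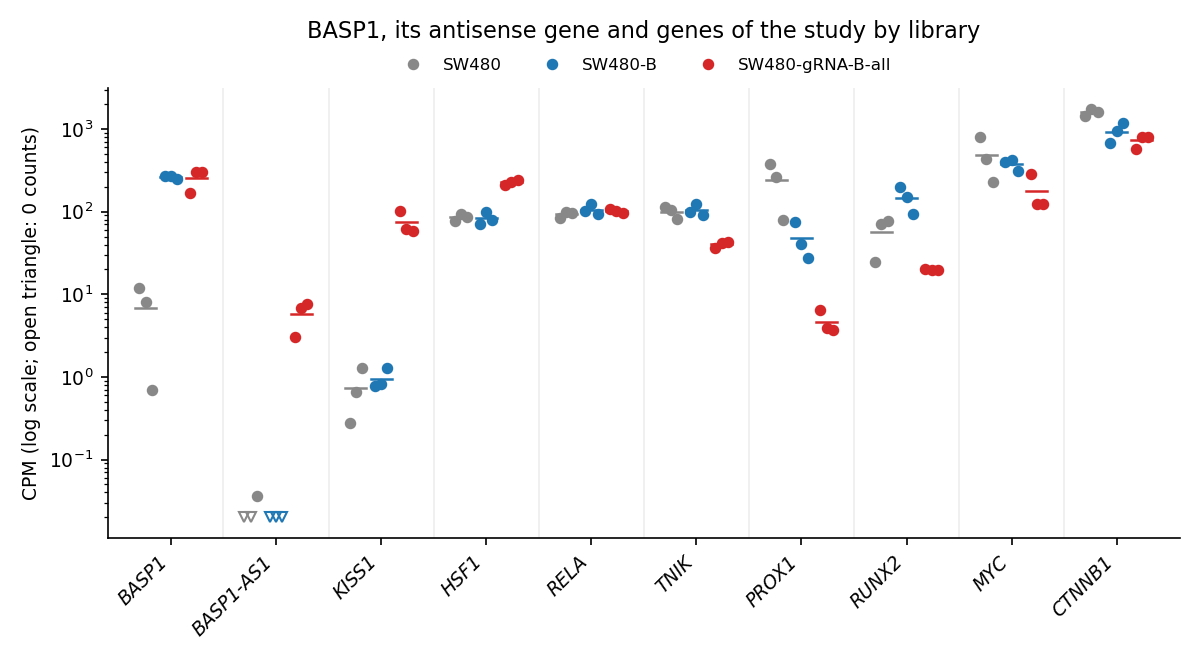
Levels in CPM on a log axis of BASP1, BASP1-AS1, parts of the activator and genes named in the study, with 1 point per library, a bar at the mean of 3 libraries where none is at 0, and open triangles for libraries with 0 counts. BASP1 overlaps between SW480-B and SW480-gRNA-B-all, whereas BASP1-AS1, KISS1 and HSF1 are higher, and TNIK, PROX1 and RUNX2 lower, in every SW480-gRNA-B-all library than in any SW480-B library.

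At this like level of BASP1 counts, 15846 genes were tested between the lines. In SW480-gRNA-B-all, 366 genes were called higher (2.31%) and 693 lower (4.37%), where called means a change above 2-fold with an adjusted p under 0.05 in the quasi-likelihood test of edgeR. At an unadjusted p under 0.05, 3873 genes differed. The libraries of the lines did not overlap in 4823 of the 15846 genes tested, among them all 1059 genes called. In bulk RNA a lower count can stand for fewer expressing cells or for less RNA per cell, which cannot be told apart. The counts moved with the libraries: after summing the closely alike libraries 2 and 3 of SW480-gRNA-B-all, the calls were 141 higher and 305 lower, and without library 1 of that line they were 409 and 911. Of the genes called, 102 of the higher and 251 of the lower were called in all 6 fits that each left out 1 library. The fewest calls came without library 3 of SW480-gRNA-B-all (135 higher, 285 lower) or library 2 (145 and 302), and without library 2 of SW480-B 168 were called higher and 389 lower, without its library 1 the counts were 221 and 459, and without its library 3 they were 607 and 941. Changes of single genes are given in log2 units, SW480-gRNA-B-all over SW480-B. Where a call is said below to be lost without a library, the adjusted p or, in a few cases, the fold then missed its threshold.

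Set beside the parental line, whose level was not used in the test, the called genes did not form 1 pattern. On the scale of log2(CPM + 0.1), the mean of the SW480 libraries lay nearer to SW480-B for 285 of the 366 genes called higher and for 447 of the 693 called lower in SW480-gRNA-B-all. It lay nearer to SW480-gRNA-B-all for the remaining 81 and 246. SW480 was above both lines for 193 of the genes called lower and below both for 123 of those called higher. These counts describe levels and hold no test.

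**Figure D2:**
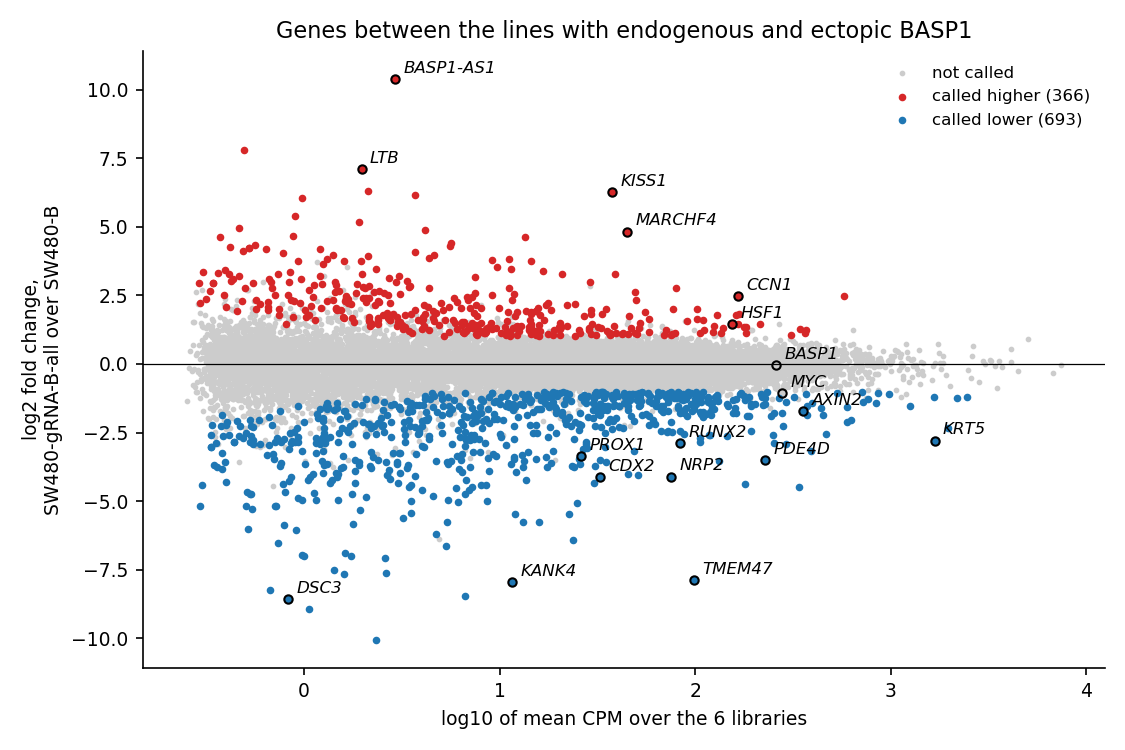
Log2 fold change of SW480-gRNA-B-all over SW480-B (vertical) against the log10 of the mean CPM of the 6 libraries (horizontal) for the 15846 genes tested, with 366 called higher in red, 693 called lower in blue and others in grey. BASP1 lies near 0, KISS1 and BASP1-AS1 stand out among the rises, and TMEM47, KANK4 and DSC3 among the falls.

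Among the 10 largest rises was KISS1, which encodes the precursor of kisspeptins and was first described as a metastasis suppressor. MARCHF4, a membrane-bound ubiquitin ligase, had 98.4, 81.1 and 80.1 CPM in SW480-gRNA-B-all and 0.309, 2.07 and 6.75 CPM in SW480-B, a rise of 4.82 log2 units (SE 0.80, adjusted p = 0.01). Its SW480-B libraries were spread over a wide range, and it was not called without library 2 of SW480-B (adjusted p = 0.068). VAV1, a signalling protein known from blood cells, had 7.38, 8.21 and 8.52 CPM against 0.271, 0.143 and 0.389 CPM and rose by 4.88 log2 units (SE 0.40, adjusted p = 0.00099). LYPD1, a GPI-anchored protein that binds nicotinic receptors, had 4.54, 4.14 and 3.81 CPM against 0, 0.0713 and 0.0707 CPM. LTB, the lymphotoxin β subunit, had 350 counts over the SW480-gRNA-B-all libraries and 2 over the SW480-B libraries, a ratio of 161 (95% counting interval 44.2 to 1334). PXDN, a peroxidase that cross-links collagen IV, had 170 against 2 counts, a ratio of 78.2 (21.3 to 651). The pseudogenes NCOR1P1 and NCOR1P3 and CCDC144NL were also among the 10, and are uncertain because they share sequence with close copies elsewhere.

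Among the 10 largest falls, TMEM47, a claudin-related protein of cell junctions, had 196, 279.7 and 113 CPM in SW480-B and 2.44, 0 and 0.0668 CPM in SW480-gRNA-B-all. KANK4, of a family that links talin to the cell cortex, had 43.1, 15.3 and 10.9 and 0.271, 0 and 0 CPM, a log2 fold change of -7.95 (SE 1.00, adjusted p = 0.0038). KCNJ8, a pore subunit of ATP-sensitive potassium channels, had 1092 counts in SW480-B and 3 in SW480-gRNA-B-all, a ratio of 396 (95% counting interval 135 to 1923). In both of these genes SW480 lay between the lines, with 0.861, 7.72 and 3.64 CPM and 0.826, 1.69 and 3.06 CPM, whereas TMEM47 had 235, 159 and 63.9 CPM in SW480. DSC3, IL12RB2, GPX5 and the pseudogene RARS1P1 had 0 counts in SW480-gRNA-B-all and were at least 49.3-, 39.5-, 60.9- and 138-fold lower. IL12RB2, a chain of the interleukin-12 receptor, was even in SW480-B, with 1.31, 1.28 and 1.38 CPM. GPX5 was not called without library 2 of SW480-B (adjusted p = 0.056), and RARS1P1 without library 1 of SW480-B (adjusted p = 0.057). AFF2, SEMA3A and PLPPR4 had 1, 2 and 1 counts in SW480-gRNA-B-all against 259, 434 and 232 in SW480-B, ratios of 282 (50.1 to 11168), 236 (64.9 to 1955) and 252 (44.8 to 10008).

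KISS1 (ENSG00000170498) had 103, 61.8 and 58.9 CPM in SW480-gRNA-B-all and 0.773, 0.82 and 1.27 CPM in SW480-B, a rise of 6.27 log2 units (SE 0.34, adjusted p = 0.0002), called in all 6 fits without 1 library. All 3 SW480-B libraries lay within the range of the SW480 libraries (0.275, 0.655 and 1.27 CPM), while their BASP1 counts overlapped those of SW480-gRNA-B-all. TNIK, the kinase that activates TCF7L2, had 35.9, 41.7 and 43 CPM against 99.9, 123 and 90.2 CPM and fell by 1.38 log2 units (SE 0.17, adjusted p = 0.0039). PROX1, a homeobox factor induced by β-catenin in colon tumours, had 6.44, 3.87 and 3.74 CPM against 75.1, 40.3 and 27.3 CPM and fell by 3.35 log2 units (SE 0.42, adjusted p = 0.0037). RUNX2, the osteogenic Runt factor, had 20.4, 19.5 and 19.8 CPM, 199.9, 149 and 94.8 CPM and, in SW480, 24.6, 70.8 and 76.4 CPM, and fell by 2.90 log2 units (SE 0.27, adjusted p = 0.0014) between the BASP1-expressing lines. FOS, a subunit of AP-1, had 13.7, 14.4 and 14.8 CPM against 36.2, 48.6 and 53 CPM and fell by 1.68 log2 units (SE 0.19, adjusted p = 0.0028). These 4 falls were called in all 6 fits without 1 library.

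MYC, the proto-oncogene at the centre of the study, had 289, 125 and 125 CPM in SW480-gRNA-B-all and 401, 421 and 309 CPM in SW480-B. Its ranges did not overlap, as in 4823 of the 15846 genes tested. Its log2 fold change of -1.07 (SE 0.34, adjusted p = 0.092) was not called. Without library 1 of SW480-gRNA-B-all it was called, at -1.58 (adjusted p = 0.0091). It was also called by DESeq2, at -1.07 (adjusted p = 0.017), with the replicate number as a block, at -1.18 (adjusted p = 0.016), and with no filter on low counts, at -1.07 (adjusted p = 0.038). MAX, its dimerization partner, had a log2 fold change of -0.22 (SE 0.20, adjusted p = 0.54). Of the genes around β-catenin, CTNNB1 itself was at -0.36 (SE 0.25, adjusted p = 0.43) and TCF7L2 at 0.10 (SE 0.21, adjusted p = 0.8). The corepressors MTA1 and TRIM28 were at 0.01 (SE 0.20, adjusted p = 0.97) and -0.33 (SE 0.20, adjusted p = 0.36), the kinase STK4 at -0.13 (SE 0.16, adjusted p = 0.66) and JUND at -0.62 (SE 0.29, adjusted p = 0.24). None of these 8 genes was called with the 6 libraries in the test of edgeR.

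Direct target genes of β-catenin and TCF had the lowest median and the largest share of calls of the lists with at least 10 tested genes. As the lists were chosen with earlier results of these data known, this rank is a description only. Of 33 genes, 28 were tested, and 16 (57.1%) were called lower and 0 higher, where the shares over all genes tested were 4.37% and 2.31%. Their median log2 fold change was -1.33, against -0.004 over all genes tested, and 26 of the 28 were below 0. Leaving out 1 library at a time gave 11 (without library 3 of SW480-gRNA-B-all) to 18 calls (without its library 1), 12 without its library 2, 13 without library 2 of SW480-B, and medians between -1.44 and -1.23. When libraries 2 and 3 of SW480-gRNA-B-all were summed, 11 were called lower. Of the members without a test, DKK4, WIF1, LGR5 and SMOC2 had at most 21 counts over the 3 libraries of either line, whereas DKK4 and LGR5 had 778 and 774 counts in SW480.

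Of the 9 tested members grouped as feedback inhibitors, 4 were called lower and all 9 were below 0. The 4 called were AXIN2, NKD1 and APCDD1 of the WNT pathway, and BAMBI, which acts on TGF-β signalling. AXIN2, a scaffold of the β-catenin destruction complex, had 99, 202 and 202 CPM in SW480-gRNA-B-all, 575, 543 and 523 CPM in SW480-B and 517, 488 and 633 CPM in SW480. It fell by 1.71 log2 units (SE 0.28, adjusted p = 0.01), and SW480-gRNA-B-all was the low line of the 3. NKD1, which binds Dishevelled, had 109, 127 and 133 CPM against 389, 295 and 317 CPM and fell by 1.44 log2 units (SE 0.18, adjusted p = 0.0039). BAMBI, a decoy receptor for TGF-β, had 19.3, 28.8 and 30.3 CPM against 155, 177 and 226 CPM and fell by 2.83 log2 units (SE 0.24, adjusted p = 0.00099). APCDD1, a membrane inhibitor of WNT ligands, had 78.3, 251 and 256 CPM against 616, 489 and 1005 CPM and fell by 1.85 log2 units (SE 0.46, adjusted p = 0.044). Its call was lost without library 1, 2 or 3 of SW480-B or library 2 or 3 of SW480-gRNA-B-all (adjusted p up to 0.11). ZNRF3, a ligase that removes Frizzled receptors, was past the p threshold at less than 2-fold (log2 fold change -0.86, SE 0.20, adjusted p = 0.035), and NOTUM and RNF43 were at -1.15 and -0.57 with adjusted p of 0.2 and 0.28.

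Of the 6 stem cell genes, 7 transcription factors and 6 growth genes tested, 3, 5 and 4 were called lower. ASCL2, the factor of intestinal stem cells, had 3.22, 5.37 and 4.51 CPM against 24.1, 22.7 and 28.8 CPM and fell by 2.53 log2 units (SE 0.25, adjusted p = 0.0017). TNFRSF19 (TROY) had 8.6, 16.5 and 15.1 CPM against 55.5, 61.6 and 58.5 CPM and fell by 2.13 log2 units (SE 0.25, adjusted p = 0.0032). CD44, the hyaluronan receptor, fell by 1.31 log2 units (SE 0.22, adjusted p = 0.01) and was not called without library 2 or 3 of SW480-gRNA-B-all (adjusted p up to 0.06). LEF1, a DNA-binding partner of β-catenin, had 21.9, 20.5 and 21.7 CPM against 59.7, 85.4 and 61.7 CPM and fell by 1.69 log2 units (SE 0.18, adjusted p = 0.0023). SP5, a zinc finger repressor, had 18.4, 18 and 19.5 CPM against 82, 68.6 and 87 CPM and fell by 2.09 log2 units (SE 0.17, adjusted p = 0.00099). SOX4 fell by 1.76 log2 units (SE 0.27, adjusted p = 0.0074). The growth factors FGF18 and FGF20 fell by 2.56 log2 units (SE 0.36, adjusted p = 0.006) and by 2.90 log2 units (SE 0.44, adjusted p = 0.0074), and both were called in all 6 fits without 1 library. TDGF1, ETS2 and PPARD were called lower as well, at -2.93, -1.36 and -1.09, with calls each lost in at least 1 fit without library 1, 2 or 3 of SW480-B or library 1, 2 or 3 of SW480-gRNA-B-all (adjusted p up to 0.1). CCND1 and EPHB2 were the members above 0, at 0.12 (SE 0.25, adjusted p = 0.81) and 1.55 (SE 0.42, adjusted p = 0.057).

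**Figure D3:**
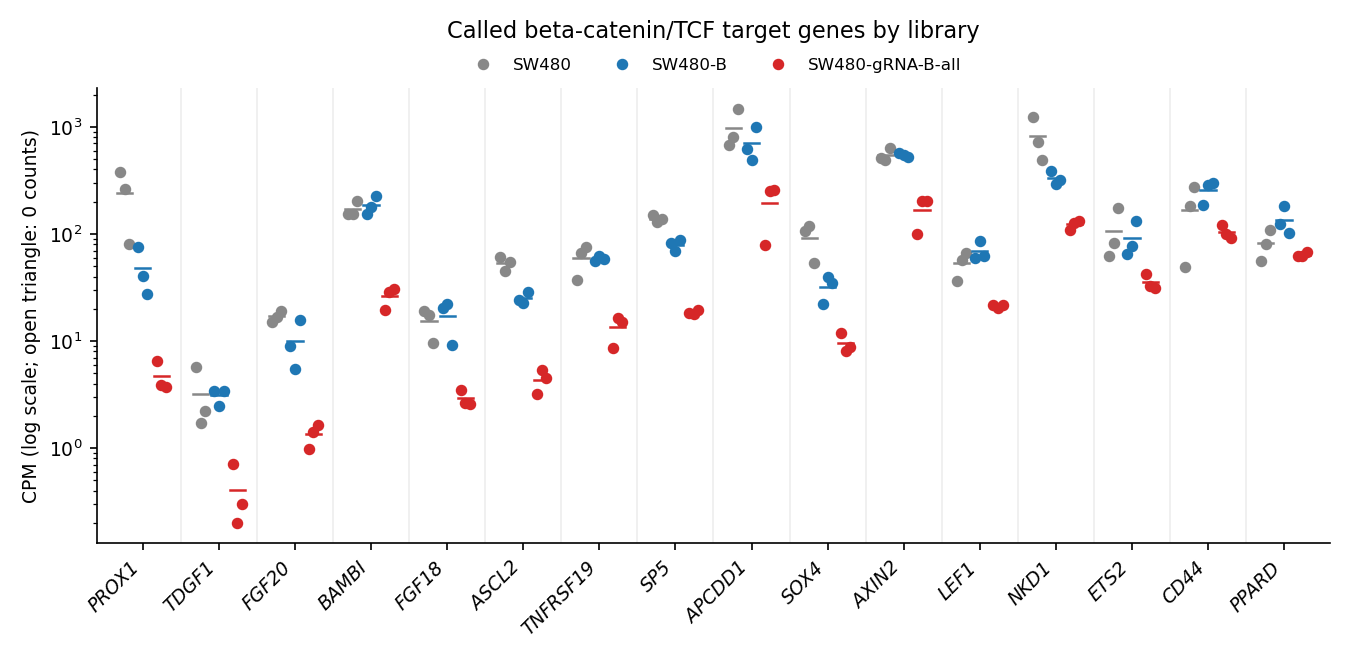
Levels in CPM on a log axis of the 16 β-catenin/TCF target genes called lower in the CRISPRa line than in the ectopic line, with 1 point per library and a bar at the mean of 3 libraries; SW480 is shown for reference. In every gene all SW480-gRNA-B-all libraries lie below all SW480-B libraries. None of the 1059 called genes overlapped between the lines, so this follows from showing called genes.

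Promoters of 2 of these genes are shown because they hold the core of the sequence that TCF factors bind. This core, CTTTGA, was searched in the 250 bases before each RefSeq start. On the other strand it reads TCAAAG, which was searched as well. RefSeq entries (GRCh38.p14) were at hand for 10 of the 16 called genes. Of these 10, 2 (SP5 and FGF18) contain the core in at least 1 entry. Over all 35116 promoter entries the share was 11.2%, counted per entry and not per gene. ETS2 and TNFRSF19 have more than 1 entry, so the 2 shares are not in the same unit. A match is a description of letters and no binding site. SP5 (chr2:170715087-170715336, + strand) has 3 matches and FGF18 (chr5:171419397-171419646, + strand) has 1, given in capitals:
SP5: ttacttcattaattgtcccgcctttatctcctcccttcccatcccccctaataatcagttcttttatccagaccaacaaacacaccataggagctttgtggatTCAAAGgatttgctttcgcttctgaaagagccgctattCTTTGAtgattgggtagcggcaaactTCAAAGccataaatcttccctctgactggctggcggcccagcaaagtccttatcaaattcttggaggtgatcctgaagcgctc
FGF18: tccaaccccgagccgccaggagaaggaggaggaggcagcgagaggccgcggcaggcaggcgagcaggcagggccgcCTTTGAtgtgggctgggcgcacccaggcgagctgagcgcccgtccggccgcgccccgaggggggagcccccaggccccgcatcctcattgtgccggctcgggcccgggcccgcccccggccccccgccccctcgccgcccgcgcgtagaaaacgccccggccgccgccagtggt

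Upstream in the same pathway, the ligands, receptors and transducers had calls in both directions. Of 66 genes, 51 were tested, with 3 called higher (5.88%), 7 lower (13.7%) and a median of -0.12. Over all genes tested the shares were 2.31% and 4.37%. WNT16, with 0.305, 0.334 and 0.401 CPM against 4.44, 5.42 and 5.34 CPM, fell by 3.85 log2 units (SE 0.33, adjusted p = 0.00099), and WNT11, a ligand of noncanonical signalling, fell by 4.22 log2 units (SE 0.41, adjusted p = 0.0016) from 13.1, 18.4 and 7.07 CPM to 0.745, 0.734 and 0.568 CPM. WNT7B had 5.93, 2.84 and 2 CPM against 0.425, 0.285 and 0.389 CPM and rose by 3.27 log2 units (SE 0.51, adjusted p = 0.0082). TLE4, a Groucho corepressor with 6.03, 8.61 and 9.28 CPM against 31.4, 21.8 and 20.4 CPM, fell by 1.62 log2 units (SE 0.26, adjusted p = 0.0095). TNIK is given above. These 5 were called in all 6 fits without 1 library. WNT5A fell by 1.75 log2 units (SE 0.34, adjusted p = 0.018) and was not called when libraries 2 and 3 of SW480-gRNA-B-all were summed (adjusted p = 0.051). WNT10A (-2.31) and the receptor FZD10 (-2.27) were called lower, and the receptor FZD2 (1.23) and CTNNBIP1 (1.36), an inhibitor of β-catenin binding to TCF, higher, with calls each lost in at least 1 fit without library 1 or 2 of SW480-B or library 2 or 3 of SW480-gRNA-B-all (adjusted p up to 0.17). The transducers had a median of -0.03, with 11 above and 11 below 0, and RSPO3, SFRP1 and SFRP2 had 0 counts in both lines.

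The desmocollin genes were close to silent in SW480-gRNA-B-all. DSC2 and DSC3 encode cadherins that join desmosomes between epithelial cells. DSC2 had 0.203, 0 and 0.1 CPM in SW480-gRNA-B-all, 8.46, 16.5 and 6.64 CPM in SW480-B and 21.1, 19.8 and 4.44 CPM in SW480, and fell by 6.65 log2 units (SE 0.73, adjusted p = 0.0024). DSC3 had 0 counts against 1.16, 2.57 and 1.2 CPM. Of the list of cadherins and desmosomal proteins, 16 of 34 were tested. Of these, 5 were called lower (DSC2, DSC3, DSG4, CDH13 and CTNNA1, 31.25%) and 0 higher, beside 4.37% and 2.31% of all genes. The median was -0.63, the same with DSC3 at its bound. DSG4, CDH13 and CTNNA1 were at -4.30, -1.16 and -1.06, with calls each lost in at least 1 fit without library 1 or 2 of SW480-B or library 2 or 3 of SW480-gRNA-B-all (adjusted p up to 0.11). E-cadherin (CDH1) and desmoglein DSG2 were past the p threshold at less than 2-fold, at -0.89 (SE 0.18, adjusted p = 0.02) and -0.95 (SE 0.23, adjusted p = 0.037). Desmoplakin (DSP) and plakophilins PKP2 and PKP3 were at -0.11, -0.03 and -0.20, none called. Without library 2 of SW480-B, or without library 3 of SW480-gRNA-B-all, 2 members were called lower, and without library 2 of the latter 3.

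Keratins, the intermediate filaments of epithelia, were split. KRT7, a keratin of simple epithelia, had 24.9, 32.8 and 33.3 CPM in SW480-gRNA-B-all and 3.25, 2 and 3.46 CPM in SW480-B, and rose by 3.38 log2 units (SE 0.28, adjusted p = 0.00099). KRT13 had 31, 14.9 and 17.1 CPM against 216, 306 and 210.4 CPM and fell by 3.54 log2 units (SE 0.32, adjusted p = 0.0013). KRT23 had 344, 163 and 164 CPM against 1088, 1147 and 695 CPM and fell by 2.13 log2 units (SE 0.35, adjusted p = 0.0099). KRT5, a keratin of basal cells, had 177, 542 and 549 CPM against 1858, 2974 and 3961 CPM and fell by 2.79 log2 units (SE 0.47, adjusted p = 0.011), and was not called without library 2 of SW480-B (adjusted p = 0.051). KRT15 was called lower and lost its call without library 3 of SW480-gRNA-B-all (adjusted p = 0.061). In all, 1 keratin was called higher (8.33%) and 4 lower (33.3%) of 12 tested, with a median of -0.77. Over all genes tested the shares were 2.31% and 4.37%. The main simple keratins KRT8 and KRT18 were at -0.26 (SE 0.24, adjusted p = 0.55) and -0.21 (SE 0.28, adjusted p = 0.7). Of 21 tight junction proteins tested, 2 were called higher (CGN and TJP3, 9.52%) and 0 lower. CGN (cingulin) rose by 2.22 log2 units (SE 0.23, adjusted p = 0.002) from 8, 5.1 and 5.65 CPM to 28.5, 28.7 and 30.7 CPM. TJP3 lost its call without library 2 or 3 of SW480-B or library 2 or 3 of SW480-gRNA-B-all (adjusted p up to 0.1).

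Genes of the matrix and its proteases changed in both directions. FN1, fibronectin, had 19.5, 39.9 and 41.4 CPM against 239, 202 and 172 CPM and fell by 2.61 log2 units (SE 0.30, adjusted p = 0.003), while SW480 spanned 33.8, 215 and 156 CPM. CCN1, a matricellular protein, had 189, 321 and 330.4 CPM against 32.5, 62.4 and 56.3 CPM and rose by 2.47 log2 units (SE 0.31, adjusted p = 0.0038). The shares of matrix genes called were 11.1% higher and 8.33% lower, beside 2.31% and 4.37% of all genes tested. Of 36 matrix genes tested, 4 were called higher (CCN1, and COL4A3, COL4A4 and COL4A5, chains of basement membrane collagen) and 3 lower (FN1, COL6A3 and COL16A1). CCN1 and FN1 alone of these 7 were called in all 6 fits without 1 library; the summed fibroblast markers, which moved with the line as given above, were not tested for their part in these values. The 2 plasminogen activators rose: PLAT had 22, 17.6 and 19 CPM against 1.74, 3.46 and 3.39 CPM (log2 fold change 2.77, SE 0.30, adjusted p = 0.0023), and PLAU had 94.3, 30.6 and 30.4 CPM against 5.26, 9.27 and 4.81 CPM (log2 fold change 3.00, SE 0.50, adjusted p = 0.011), with library 1 of SW480-gRNA-B-all above the other 2 and the call lost without library 1 of SW480-B (adjusted p = 0.062). The metalloproteinases MMP15, MMP17 and MMP19 were called higher as well, at 1.05, 2.21 and 1.62. ADAM19 fell by 1.33 log2 units (SE 0.22, adjusted p = 0.0097), and TIMP3, an inhibitor of metalloproteinases, was called lower at -1.53. The calls of the 3 metalloproteinases and of TIMP3 were each lost in at least 1 fit without library 1, 2 or 3 of SW480-B or library 1, 2 or 3 of SW480-gRNA-B-all (adjusted p up to 0.12). MMP17 lost its call whichever library was left out (adjusted p from 0.062 to 0.12). The list of 24 proteases and inhibitors tested thus had 5 called higher (20.8%) and 2 lower (8.33%), with a median of 0.52. That median turned to -0.09 without library 1 of SW480-gRNA-B-all and lay between 0.27 and 0.35 without any other library.

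At the cell side of adhesion, 5.26% of the integrin subunits were called in each direction and 7.14% of the focal adhesion proteins, beside 2.31% higher and 4.37% lower over all genes. Of 19 integrin subunits tested, the collagen receptor subunits ITGA11 and ITGA1 were called higher and lower, at 2.35 and -2.44, with calls each lost in at least 1 fit without library 1, 2 or 3 of SW480-B or library 2 or 3 of SW480-gRNA-B-all (adjusted p up to 0.12). The median was -0.01. ITGB1, the common β subunit, was at 0.27 (SE 0.19, adjusted p = 0.43) and ITGA5, its partner in the fibronectin receptor, at 0.95 (SE 0.22, adjusted p = 0.036). In the focal adhesion list the paralogous adaptors LIMS1 and LIMS2 (PINCH proteins) moved in opposite directions: LIMS1 had 174, 156 and 156 CPM against 388, 529 and 356 CPM and fell by 1.39 log2 units (SE 0.20, adjusted p = 0.0058), and LIMS2 had 11.3, 11.4 and 11.7 CPM against 1.89, 3.07 and 1.41 CPM and rose by 2.43 log2 units (SE 0.32, adjusted p = 0.0043). TLN2 (talin-2) was called higher at 1.27 and the scaffold NEDD9 lower at -1.22, with calls each lost in at least 1 fit without library 2 of SW480-B or library 2 or 3 of SW480-gRNA-B-all (adjusted p up to 0.1). Of 21 genes of mesenchymal transition tested, 4 were called lower (19.0%) and 0 higher, with a median of -0.67. They were RUNX2, FN1, TGFBI, which fell by 1.25 log2 units (SE 0.20, adjusted p = 0.0098), and PRRX1, a mesenchymal homeobox factor with 0.373, 0.134 and 0.0668 CPM against 16.8, 12.2 and 2.9 CPM. Among actin nucleators and elongators, 0 of 44 were called higher and 2 lower (4.55%), and the median was 0.08. The 2 were the formin FHOD3 (log2 fold change -3.19, SE 0.38, adjusted p = 0.0031) and WASL, at -1.13. The call of WASL was lost without library 1 or 2 of SW480-B or library 2 or 3 of SW480-gRNA-B-all (adjusted p up to 0.12).

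Guidance cues first known from axons, a field in which BASP1 is also studied, are taken by family. SEMA3A, a secreted repellent, had 0.0339, 0.0334 and 0 CPM in SW480-gRNA-B-all, 2.86, 11.1 and 1.73 CPM in SW480-B and 282, 251 and 70.2 CPM in SW480, so that SW480-B lay between the other lines. NRP2, a semaphorin and VEGF-C receptor, had 13.2, 5.37 and 6.28 CPM against 175, 169.7 and 80.6 CPM and fell by 4.10 log2 units (SE 0.44, adjusted p = 0.0023). SEMA3G had 3.59, 11 and 11.6 CPM against 0.618, 0.214 and 0.813 CPM and rose by 3.98 log2 units (SE 0.61, adjusted p = 0.0078). SEMA7A and the receptor PLXNA2 were called higher at 1.78 and 1.66, and SEMA3F lower at -2.55, with calls each lost in at least 1 fit without library 1, 2 or 3 of SW480-B or library 2 or 3 of SW480-gRNA-B-all (adjusted p up to 0.13). Of the 23 semaphorins, plexins and neuropilins tested, 3 were called in each direction (13.0%), beside 2.31% higher and 4.37% lower over all genes. EFNB1, an ephrin ligand, had 97.1, 92.8 and 100.3 CPM against 484, 468 and 444 CPM and fell by 2.27 log2 units (SE 0.16, adjusted p = 0.00061). EFNB2 and EPHB6 were called lower at -2.73 and -1.52. Each of the 2 calls was lost in at least 1 fit without 1 library (adjusted p up to 0.15). The libraries were 1 or 2 of SW480-B and 2 or 3 of SW480-gRNA-B-all. Thus 3 of 18 ephrins and Eph receptors were called lower (16.7%) and 0 higher. NTN1, netrin-1, had 20.8, 49.8 and 49.6 CPM against 6.49, 7.27 and 12.4 CPM and rose by 2.20 log2 units (SE 0.39, adjusted p = 0.013), a call lost without library 1 or 2 of SW480-B (adjusted p up to 0.078). ROBO3, a receptor of the Slit pathway, was called higher at 1.60, a call lost without library 1, 2 or 3 of SW480-B or library 1, 2 or 3 of SW480-gRNA-B-all (adjusted p up to 0.1).

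In the list of neuronal and synaptic genes, 3 of 34 were called higher (MAPT, ENO2 and DLG4, 8.82%) and 5 lower (14.7%), with a median of -0.19. Over all genes tested the shares were 2.31% and 4.37%. GAP43, the growth-cone protein most often compared with BASP1, had 0.508, 0.367 and 0.267 CPM against 3.36, 3.92 and 5.8 CPM and fell by 3.51 log2 units (SE 0.41, adjusted p = 0.0029), called in all 6 fits without 1 library. The synaptic vesicle genes SNAP25 and SYT1 were at -2.19 and -4.24, and the adhesion molecule NCAM1 and the growth-cone protein DPYSL3 at -2.29 and -1.33. MAPT (tau) was at 1.2, the neuronal enolase ENO2 at 1.07 and the synaptic scaffold DLG4 at 1.35. These 7 calls were each lost in at least 1 fit without library 1, 2 or 3 of SW480-B or library 1, 2 or 3 of SW480-gRNA-B-all (adjusted p up to 0.14). Of 8 clustered protocadherins tested, PCDHAC2 was called higher, with 1.86, 1.6 and 2.47 CPM against 0.193, 0.321 and 0.283 CPM, and is uncertain because the genes of its cluster share exons.

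**Figure D4:**
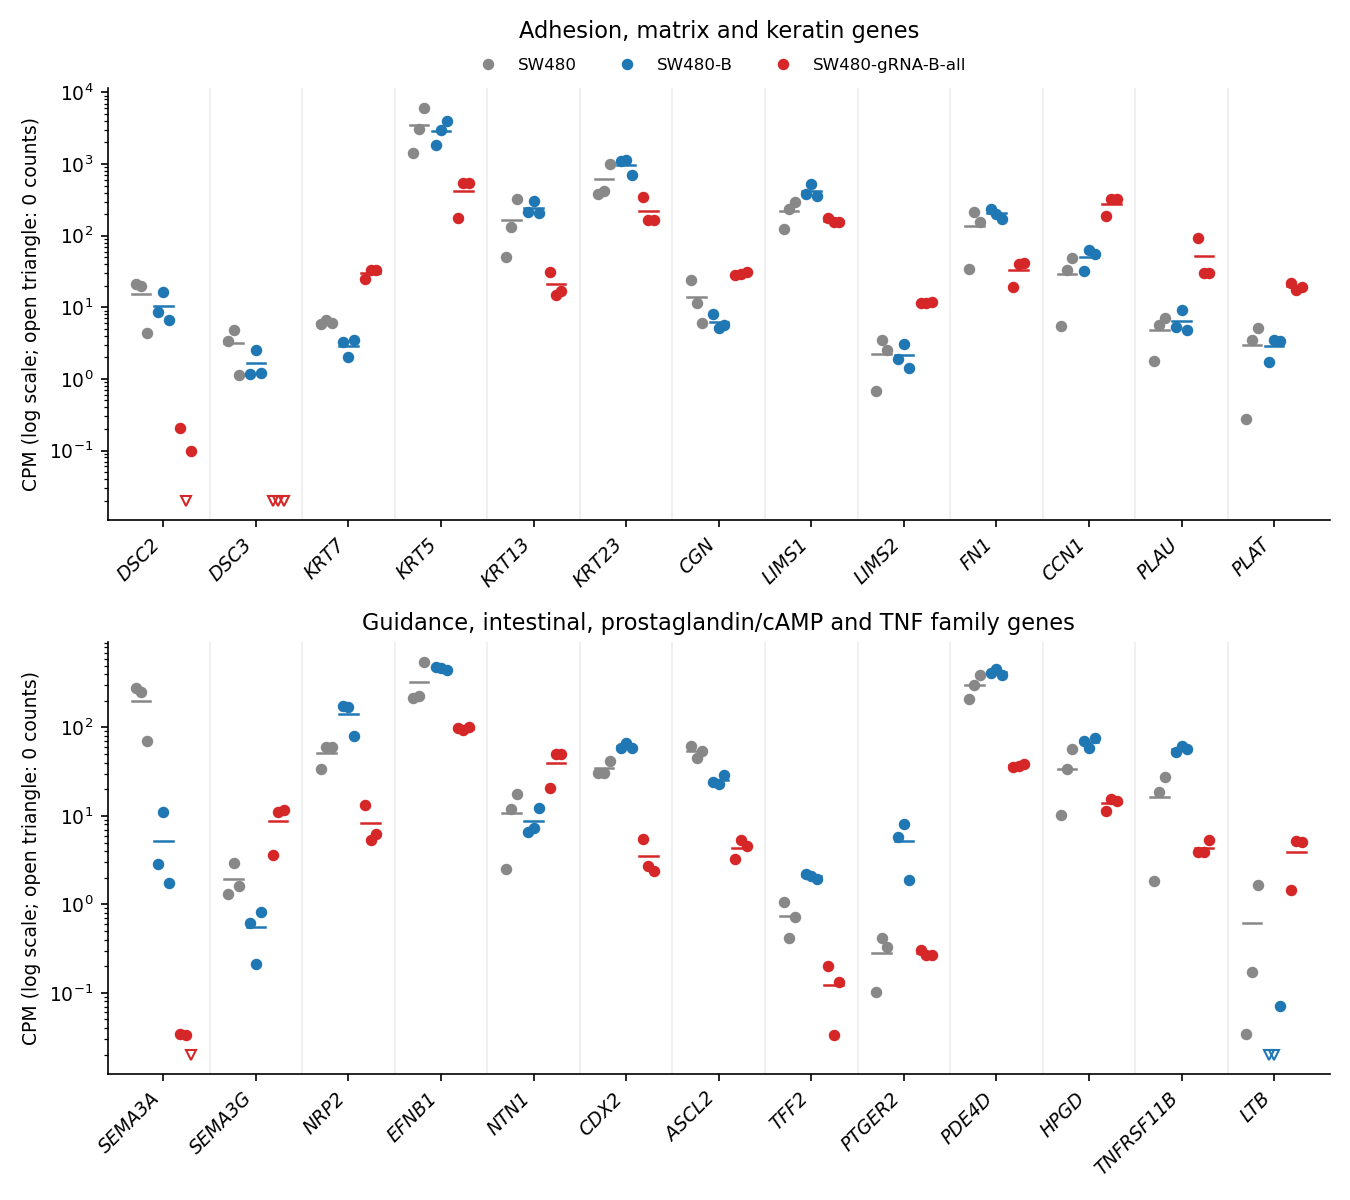
Levels in CPM on a log axis of called genes of adhesion, matrix and keratins (upper panel) and of guidance, intestinal identity, prostaglandin/cAMP signalling and the TNF family (lower panel), with 1 point per library, a bar at the mean of 3 libraries where none is at 0, and open triangles at 0 counts. KRT7, CGN, LIMS2, CCN1, PLAU, PLAT, SEMA3G, NTN1 and LTB are higher and the other genes lower in all SW480-gRNA-B-all libraries than in any SW480-B library. No called gene overlapped between the lines, so the separation follows from showing called genes.

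Among intestinal identity genes, calls were mostly lower. CDX2, the master homeobox factor of intestine, had 5.52, 2.7 and 2.37 CPM in SW480-gRNA-B-all, 58.6, 67.4 and 58.2 CPM in SW480-B and 30.4, 30.7 and 41.9 CPM in SW480, and fell by 4.12 log2 units (SE 0.34, adjusted p = 0.00099). TFF2, a trefoil peptide, had 0.203, 0.0334 and 0.134 CPM against 2.2, 2.07 and 1.94 CPM and fell by 4.03 log2 units (SE 0.53, adjusted p = 0.0044). ALPP, a placental-type alkaline phosphatase whose reads can be shared with its close copies, fell by 2.17 log2 units (SE 0.37, adjusted p = 0.011). Of 27 tested members of the 72 matched, 6 were called lower (CDX2, ASCL2, TFF2, ALPP, KLF5 and PDX1) and GATA6 higher, with a median of -0.31. The shares were 22.2% lower and 3.70% higher, beside 4.37% and 2.31% of all genes tested. The factors KLF5, PDX1 and GATA6 were at -1.47, -1.15 and 2.33, with calls each lost in at least 1 fit without library 1, 2 or 3 of SW480-B or library 2 or 3 of SW480-gRNA-B-all (adjusted p up to 0.23). Without library 1 of SW480-gRNA-B-all, 11 were called lower. A group of 18 members, among them ATOH1, SI, TFF1, TFF3 and OLFM4, had 0 counts in both lines. Of 31 HOX genes tested, 1 was called lower (3.23%, below the share of all genes) and 0 higher. This was HOXA9, at -1.05. Its call was lost without library 1 or 3 of SW480-B or library 1, 2 or 3 of SW480-gRNA-B-all (adjusted p up to 0.1).

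Of 8 called prostaglandin and cAMP genes, 6 were lower. PDE4D, a phosphodiesterase that degrades cAMP, had 36, 37 and 38.4 CPM against 414, 455 and 387 CPM and fell by 3.50 log2 units (SE 0.17, adjusted p = 0.00012). HPGD, the enzyme that inactivates prostaglandin E2, had 11.3, 15.7 and 14.7 CPM against 70.2, 57.8 and 75.8 CPM and fell by 2.29 log2 units (SE 0.20, adjusted p = 0.0011). PTGER2, a receptor of prostaglandin E2, had 0.305, 0.267 and 0.267 CPM, 5.76, 8.02 and 1.87 CPM and, in SW480, 0.103, 0.413 and 0.327 CPM, so that SW480-B was the high line. PLA2G4A, which releases arachidonic acid, had 3 counts against 79 in SW480-B, a ratio of 28.6 (95% counting interval 9.45 to 142). Of the whole list, 2 of 24 tested genes were called higher (8.33%) and 6 lower (25%), beside 2.31% and 4.37% of all genes. The cyclooxygenase PTGS1 and the kinase subunit PRKAR2B were the higher ones, at 1.72 and 2.05, and PTGDS and PDE8B the other 2 falls, at -3.26 and -2.85. These 4 calls were each lost in at least 1 fit without library 1, 2 or 3 of SW480-B or library 1, 2 or 3 of SW480-gRNA-B-all (adjusted p up to 0.17). That of PTGS1 was lost whichever library was left out.

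The TNF ligands and receptors were split, with 3 of 30 called higher (10.0%) and 7 lower (23.3%), beside 2.31% and 4.37% of all genes. TNFRSF11B, osteoprotegerin, had 3.93, 3.91 and 5.31 CPM against 52.7, 61.5 and 57.2 CPM and fell by 3.71 log2 units (SE 0.20, adjusted p = 0.0002). EDAR, the ectodysplasin receptor, had 48.8, 64.4 and 66.3 CPM against 256, 466 and 256 CPM and fell by 2.44 log2 units (SE 0.28, adjusted p = 0.0028). EDA2R, its relative on the X chromosome, fell by 4.89 log2 units (SE 0.74, adjusted p = 0.0074), and FASLG fell by 3.80 log2 units (SE 0.54, adjusted p = 0.0059) from 2.43, 3.07 and 3.11 CPM to 0.373, 0.0668 and 0.167 CPM. LTB, given above, and TNFRSF8 (CD30), at 2.44 (SE 0.42, adjusted p = 0.011), were called higher in all 6 fits without 1 library. TNFSF10 (TRAIL) and NGFR were called lower at -2.74 and -1.02 and TNFRSF11A (RANK) higher at 3.19, with calls each lost in at least 1 fit without library 1, 2 or 3 of SW480-B or library 1, 2 or 3 of SW480-gRNA-B-all (adjusted p up to 0.14). Among 26 NF-κB target genes tested, 3 were called higher (LTB, CSF1 and ICAM1, 11.5%) and CXCL3 lower (3.85%), with a median of -0.19. CSF1 rose by 1.95 log2 units (SE 0.28, adjusted p = 0.0063), and ICAM1 had 194, 151 and 149 CPM against 59.3, 74.2 and 29.4 CPM, a call lost without library 1 of SW480-B (adjusted p = 0.07). CXCL3 lost its call without library 2 of SW480-B or library 2 or 3 of SW480-gRNA-B-all (adjusted p up to 0.15).

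The calls among Notch and growth factor genes were lower, and those among BMP genes went in both directions. JAG1, a Notch ligand, had 11.6, 7.34 and 6.51 CPM against 31.1, 41.2 and 31.7 CPM and fell by 2.04 log2 units (SE 0.26, adjusted p = 0.0041). HEY2, a Notch target, had 1.39, 0.901 and 0.601 CPM against 8.39, 18.9 and 12.3 CPM and fell by 3.77 log2 units (SE 0.43, adjusted p = 0.0028). With MAML2, a coactivator, at -1.41 (SE 0.22, adjusted p = 0.0088), 3 of 30 Notch genes were called lower (10.0%, against 4.37% of all genes) and 0 higher. Of 42 BMP and TGF-β genes tested, 4 were called higher (9.52%) and 6 lower (14.3%), beside 2.31% and 4.37% of all genes. ID2, an immediate target of BMP signalling, had 10.4, 39.8 and 34.3 CPM against 227, 138 and 184 CPM and fell by 2.70 log2 units (SE 0.46, adjusted p = 0.011), a call lost without library 1 of SW480-B (adjusted p = 0.052). Higher were the BMP antagonists NOG, at 2.29 (SE 0.36, adjusted p = 0.0089), and GREM1, at 2.65, with SMAD6 and SMAD9 at 1.59 and 2.50. Lower beside BAMBI and ID2 were the ligands BMP4, BMP6 and INHBA, at -1.06, -2.24 and -2.24, and the inhibitory SMAD7, at -1.17. Apart from BAMBI and ID2, these 8 calls were each lost in at least 1 fit without library 1, 2 or 3 of SW480-B or library 1, 2 or 3 of SW480-gRNA-B-all (adjusted p up to 0.2). That of INHBA was lost whichever library was left out. Of 21 EGF and FGF ligands and receptors tested, 3 were called lower (14.3%), FGF18, FGF20 and FGF19, the last at -1.34. Among 30 ERK feedback and immediate early genes, FOS and SPRY2 were called lower (6.67%) and 0 higher, SPRY2 at -1.2, and EGR1 and DUSP6 were at 0.06 and 0.72, not called. The calls of FGF19 and SPRY2 were each lost in at least 1 fit without library 1, 2 or 3 of SW480-B or library 2 or 3 of SW480-gRNA-B-all (adjusted p up to 0.16). Without library 1 of SW480-gRNA-B-all, 6 of the ERK list were called lower.

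Among immune genes, class I genes and interferon-stimulated genes were called in both directions. Beside the shares of this paragraph, those over all genes tested were 2.31% higher and 4.37% lower. HLA-B had 259, 343 and 344 CPM against 115, 83 and 149.5 CPM and rose by 1.44 log2 units (SE 0.25, adjusted p = 0.011), a call lost without library 1 of SW480-B or library 3 of SW480-gRNA-B-all (adjusted p up to 0.051). Reads of HLA-B can be shared with other class I genes and depend on alleles. Of 23 genes of antigen presentation by MHC class I tested, 2 were called higher, HLA-B and PSMB8 (8.70%), and the chaperone CANX lower (4.35%), with a median of 0.37. The immunoproteasome subunit PSMB8 was at 1.11 and CANX at -1.19, with calls each lost in at least 1 fit without library 1 or 2 of SW480-B or library 2 or 3 of SW480-gRNA-B-all (adjusted p up to 0.092). Of 38 interferon-stimulated genes tested, 2 were called higher (5.26%) and 3 lower (7.89%), with a median of -0.07. DHX58 (LGP2), an RNA sensor, had 4.91, 5.91 and 5.64 CPM against 0.812, 0.749 and 0.212 CPM and rose by 3.21 log2 units (SE 0.47, adjusted p = 0.0069). USP18 was the other gene called higher, at 2.31, and OAS2, MX2 and GBP2 were called lower, at -1.68, -2.46 and -2.51, with calls each lost in at least 1 fit without library 1, 2 or 3 of SW480-B or library 1, 2 or 3 of SW480-gRNA-B-all (adjusted p up to 0.16). The heat shock list had a median of 0.54 over 27 genes with 22 above 0, and 2 were called higher (7.41%), HSF1 and CRYAB. As given above, counts of HSF1 do not tell transcripts of the vector from those of the endogenous gene. The inducible HSPA1A and HSPA1B were at 1.42 (SE 0.38, adjusted p = 0.056) and 0.93 (SE 0.30, adjusted p = 0.096), not called, and nearly identical in sequence. CRYAB lost its call without library 1, 2 or 3 of SW480-B or library 2 or 3 of SW480-gRNA-B-all (adjusted p up to 0.17), and without library 1 of SW480-B the median was 0.30. Over the fits without 1 library, 1 to 5 of the list were called higher, the most without library 1 of SW480-gRNA-B-all.

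Of 46 MYC target genes of ribosome biogenesis tested, 0 were called, with a median of -0.08, and of 75 cytosolic ribosomal proteins 0 were called, with a median of 0.07. Of 68 cell cycle genes, 61 were above 0, with a median of 0.39, which ran from 0.19 without library 1 of SW480-B to 0.69 without its library 3. CDKN1C, an inhibitor, was called lower (1.47%), and 0 were called higher. Its call was lost without library 1 of SW480-B or library 1, 2 or 3 of SW480-gRNA-B-all (adjusted p up to 0.1). Without library 3 of SW480-B, 4 cell cycle genes were called higher. Cholesterol synthesis genes had a median of -0.83, with 23 of 25 below 0 and 4 called lower (16.0%). LSS, lanosterol synthase, had 35.7, 50.2 and 52.6 CPM against 179.7, 247 and 95.7 CPM and fell by 1.92 log2 units (SE 0.33, adjusted p = 0.012), and library 3 of SW480-B was the lowest of its line. This list rested on single libraries: 0 were called lower without library 1 of SW480-B, 11 without its library 3, 2 without its library 2 and 1 without any 1 library of SW480-gRNA-B-all, and without library 1 of the latter 1 was called higher. Of 26 p53 target genes tested, 1 was called lower (3.85%, beside 4.37% of all genes) and 0 higher. This was PERP, a membrane protein of desmosomes and apoptosis. It had 80.4, 80.9 and 75.9 CPM against 287, 392 and 195 CPM and fell by 1.88 log2 units (SE 0.25, adjusted p = 0.0046).

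Of the list of TRIM28, NuRD and BASP1 partners, 2.5% were called in each direction, beside 2.31% higher and 4.37% lower over all genes. CHD3, a remodelling subunit of NuRD, had 188, 172 and 182 CPM against 83.1, 56.9 and 66.4 CPM and rose by 1.39 log2 units (SE 0.18, adjusted p = 0.0044). Of the 40 genes of TRIM28, NuRD and BASP1 partners, CHD3 was called higher and GAP43 lower, and the median was 0.03. Glycolysis and hypoxia genes had 2 of 36 called higher (ENO2 and ANGPTL4, 5.56%) and 3 lower (EGLN1, EGLN3 and ANKRD37, 8.33%), with a median of -0.07. ANGPTL4 was at 3.10, the oxygen sensors EGLN1 and EGLN3 at -1.18 and -1.29 and ANKRD37 at -1.90, with calls each lost in at least 1 fit without library 1 or 2 of SW480-B or library 1, 2 or 3 of SW480-gRNA-B-all (adjusted p up to 0.16). Of 21 Hippo and YAP genes tested, NF2 (merlin) and ANKRD1 were called higher (9.52%), at 1.11 and 1.27, and 0 lower. Each of the 2 calls was lost in at least 1 fit without 1 library (adjusted p up to 0.14). The libraries were 1, 2 or 3 of SW480-B and 2 or 3 of SW480-gRNA-B-all. The leukocyte marker CD4, at 1.66, 1.43 and 1.41 CPM in SW480-B, was called lower, a call lost without library 2 or 3 of SW480-gRNA-B-all (adjusted p up to 0.071).

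Most list counts were smaller when libraries 2 and 3 of SW480-gRNA-B-all were added up, which leaves that line with 2 samples. The WNT ligands, receptors and transducers then had 1 called higher and 4 lower, cadherins and desmosomal proteins 0 and 3, matrix proteins 1 and 1, proteases 2 and 1, semaphorins 2 and 2, ephrins 0 and 1, neuronal genes 0 and 1, BMP and TGF-β genes 1 and 2, prostaglandin and cAMP genes 0 and 4, intestinal genes 0 and 4, TNF family genes 2 and 5, glycolysis and hypoxia genes 1 and 0, and cholesterol genes 0 and 1.

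The genes of a few chromosome arms were shifted between the lines. Over the 41 chromosome arms with at least 50 tested genes, 36 had a median log2 fold change between -0.2 and 0.2. Genes of Xp had a median of -0.74 over 203 genes, with 0 called higher and 34 lower (16.7%). Those of 21q were at -0.58 over 155 genes, with 2 called higher (1.29%) and 26 lower (16.8%). Over all genes tested the shares were 2.31% higher and 4.37% lower. Genes of 13q and 19q were at -0.30 and -0.23. Genes of 3p were at 0.46 over 411 genes, with 30 called higher (7.30%) and 9 lower (2.19%). Relative to the mean of the 6 libraries, Xp genes had a median of -0.07 in library 1 of SW480-gRNA-B-all and of -0.49 and -0.51 in its libraries 2 and 3, against 0.35 to 0.39 in SW480-B. For 19q, library 1 was at 0.14, within the 0.09 to 0.15 of SW480-B, and libraries 2 and 3 were at -0.23 and -0.25. On 21q the 3 libraries of SW480-gRNA-B-all were at -0.30, -0.25 and -0.25. With the median of each arm taken out as an offset, 327 genes were called higher and 633 lower, among them 15 of the 28 β-catenin/TCF targets tested, all lower. TMEM47 lies on Xp, ETS2 and TFF2 on 21q, and CTNNB1 on 3p. In the fit with arm offsets ETS2 was at -0.78 (adjusted p = 0.14) and APCDD1, on 18p, at -1.77 (adjusted p = 0.062). Both were then no longer called. CTNNB1 was at -0.80 (adjusted p = 0.07), not called, and TMEM47 at -7.30 (adjusted p = 0.0074), still called.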

How the data were processed

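Poly(A) RNA was sequenced from the parental cells, the ectopic line and the CRISPRa line, grown in L-15 medium with serum, in 3 libraries each. The authors deposited read counts per Ensembl gene and library, made from reads aligned by STAR to GRCh37, and Picard metrics of each library with coverage along transcripts as a signal. The counting software and its strand setting are not given in the sources used here. Rows that name no gene (no feature 5.22% to 9.93%, ambiguous 3.09% to 3.44% of each file's total) were left out. Library identity was taken from the genotype labels. The 3 libraries of each BASP1-expressing line were compared in edgeR 4.0.16 (R 4.3.3): TMM scaling, filterByExpr (count 10, total 15), a robust quasi-likelihood fit and its test with Benjamini-Hochberg adjustment over all 15846 genes tested. A call needed an adjusted p under 0.05 and a change above 2-fold. CPM were scaled over all 9 libraries; the SW480 libraries entered the fit of all 9 alone. Alternatives were RLE, other filters, a single fit of all 9 libraries, replicate numbers as a block, DESeq2 1.42.0, each library left out, the pair of most alike libraries summed, other thresholds, and offsets per chromosome arm. Ratios of genes with 1 to 3 counts in a line carry exact 95% binomial intervals on the pooled counts.

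Named were the 10 largest changes in each direction among called genes with a symbol, a mean of 1 CPM or more in the line where they were higher and no overlap. Called members of the lists were named too, more than 6 per direction in some lists. The genes that the study names for these lines were added, and exceptions are marked where they occur. The members and lists were chosen with earlier results of these data known. Of the listed symbols, 15 could not be matched. Promoter sequences are from RefSeq on GRCh38.p14, and all gene coordinates are on GRCh37.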

Additional observations from a re-analysis of the deposited data

How the results depend on the processing

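Of the 1059 calls (366 higher, 693 lower), the total was 1065 with RLE factors, 947 with a filter of 1 CPM and 960 with chromosome arm offsets. Apart from the fits without 1 library, the counts moved by over 1.5 times under 4 settings. With all 9 libraries in 1 fit, 654 genes were called, 181 of them higher and 473 lower. DESeq2 called 556 higher and 1577 in all. With libraries 2 and 3 of SW480-gRNA-B-all summed, 446 were called, 141 higher and 305 lower. At an adjusted p under 0.01, 388 were called, 106 higher and 282 lower. Leaving out 1 library gave 420 to 1548 calls, 135 to 607 higher and 285 to 941 lower. The BASP1 log2 fold change of -0.03 became 0.014 with arm offsets (adjusted p = 0.98) and ran from -0.15 to 0.22 without 1 library, and was called in no fit. MTA1 turned from 0.01 to between -0.165 and 0.188 without 1 library, lowest without library 2 of SW480-B and -0.015 without library 1 of SW480-gRNA-B-all, and to -0.10 with arm offsets, TCF7L2 from 0.10 to -0.046 without library 3 of SW480-B, and RELA from -0.05 to 0.058 without library 2 of SW480-B and 0.00062 without library 3 of SW480-gRNA-B-all, with its lowest value, -0.129, without library 3 of SW480-B; none was called. The cause of these moves was not tested. The labels number the libraries of both lines alike. Deviations of same-numbered libraries from the mean of their line correlated at r = 0.25, -0.10 and 0.26. Libraries 2 and 3 of SW480-gRNA-B-all deviate almost alike, so these values cannot decide whether the numbers pair the libraries. The replicate block gave 1389 calls, of which 504 were higher and 885 lower. With 3 libraries per line, 2 of them closely alike in SW480-gRNA-B-all, and no second clone of either line, the precision is that of these libraries. Genes below the counting limit of at most 0.116 CPM cannot be compared.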

Other observations

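The genes of this paragraph are in none of the lists and were chosen after their values were seen, as abundant genes called in all 6 fits that left out 1 library. SLC1A5, the main importer of glutamine, had 1018, 467 and 479 CPM in SW480-gRNA-B-all and 3519.8, 3379 and 2868 CPM in SW480-B, and fell by 2.32 log2 units (SE 0.34, adjusted p = 0.0066). HSPA5, the chaperone BiP of the endoplasmic reticulum, fell by 1.55 log2 units (SE 0.19, adjusted p = 0.0036), and the disulfide isomerase PDIA4 and the calcium-binding RCN1 of the same compartment fell by 1.52 log2 units (SE 0.17, adjusted p = 0.0028) and fell by 1.41 log2 units (SE 0.20, adjusted p = 0.0059). HSPA5 had 612, 668 and 649 CPM in SW480-gRNA-B-all, 1697, 2181 and 1759 CPM in SW480-B and 738, 1188 and 706 CPM in SW480, so that SW480-B was the high line. MPZL2, an adhesion protein of epithelia, had 22.2, 33.6 and 31.4 CPM against 820.1, 575 and 547 CPM and fell by 4.48 log2 units (SE 0.27, adjusted p = 0.00033). SYK, a tyrosine kinase, had 105, 63.7 and 65.9 CPM against 1020.3, 422 and 676 CPM and fell by 3.18 log2 units (SE 0.37, adjusted p = 0.003). FSCN1, the actin bundler fascin, had 305, 243 and 237 CPM against 63, 101 and 57.1 CPM and rose by 1.83 log2 units (SE 0.24, adjusted p = 0.0047).

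PPME1 and its neighbours were likewise chosen after their values were seen. PPME1, which demethylates the catalytic subunit of protein phosphatase 2A, had 1019.5, 959 and 944 CPM in SW480-gRNA-B-all, 146, 178 and 197 CPM in SW480-B and 99.6, 279.9 and 277 CPM in SW480, and rose by 2.49 log2 units (SE 0.19, adjusted p = 0.00096). Its neighbour C2CD3, a centriole protein gene, rose by 1.77 log2 units (SE 0.17, adjusted p = 0.0015), from 84.2, 64 and 72.8 to 268, 242 and 245 CPM. On chromosome 11 of GRCh37, C2CD3 (73723763 to 73882255) ends just before PPME1 (73882312 to 73965748). PAAF1 and PGM2L1, further out on either side, were at -0.21 (SE 0.17, adjusted p = 0.51) and 0.24 (SE 0.22, adjusted p = 0.55), not called.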
